A study of Mus musculus with 8 samples.

Results

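The Toll-like receptor (TLR) genes *Tlr1*, *Tlr2*, *Tlr3*, *Tlr4*, *Tlr6*, *Tlr7*, *Tlr8*, *Tlr9* and *Tlr13*, together with *Cd14*, were followed in bone marrow-derived dendritic cells (BMDCs). These 10 genes, of the 47937 in the count tables, were chosen by name, with earlier results of these data known. BMDCs are grown from mouse bone marrow with GM-CSF, and such cultures hold dendritic cell (DC)-like and macrophage-like cells side by side. The study examined what the loss of G-protein coupled receptor kinases (GRKs), which phosphorylate activated receptors, does to these cells, and sequenced 2 libraries in each of 4 groups. The groups were WT untreated, Grk 3xKO untreated, WT with LPS and Grk 3xKO with LPS, and the Grk 3xKO groups are written 3x*Grk*-/- here.

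3x*Grk*-/- cells came from mice with *Vav1*-iCre, *Grk2* fl/fl, *Grk3*-/- and *Grk6* fl/fl. *Vav1*-iCre is active from early hematopoietic cells on, so the precursors of the cultured cells were targeted as well. WT animals were Cre-negative and matched for age and sex. Whether they carried any of the other alleles is not given in the sources used here. The mice were adults of more than 8 weeks, and their strain background was C57BL6/J. Each culture ran for 8 days in GM-CSF at 20 ng/ml, and the LPS groups then received 20 ng/ml LPS for 24 h. The RNA was extracted in technical replicates, and nothing says that the 2 libraries of a group are separate cultures or animals, so all p-values measure only the spread between these libraries, which may be technical.

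TLRs are receptors of innate immune cells that recognize molecules of microbes. TLR1, TLR2, TLR4 and TLR6 sit at the cell surface, where TLR2 pairs with TLR1 or TLR6 to bind bacterial lipopeptides and TLR4 with its partner MD-2 (gene *Ly96*) binds LPS, which CD14 hands over. TLR3, TLR7, TLR8, TLR9 and TLR13 sit in endosomes and recognize nucleic acids: double-stranded RNA for TLR3, single-stranded RNA or its breakdown products for TLR7 and TLR8, CpG DNA for TLR9 and bacterial ribosomal RNA for TLR13. In macrophages and DCs these receptors signal through MyD88 or TRIF and switch on inflammatory and interferon genes.

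The promoters of *Tlr8* and *Tlr9* are shown, because *Tlr8* had the highest fold between genotypes of all members and *Tlr9* was the member that was not higher in 3x*Grk*-/- cells under either condition. Both windows hold the 250 bases before an annotated start, read 5′ to 3′ on the strand of the gene from RefSeq (GRCm38.p6), and neither overlaps an annotated exon. Capitals mark motif matches.
*Tlr8*, chrX:167264330-167264579, minus strand: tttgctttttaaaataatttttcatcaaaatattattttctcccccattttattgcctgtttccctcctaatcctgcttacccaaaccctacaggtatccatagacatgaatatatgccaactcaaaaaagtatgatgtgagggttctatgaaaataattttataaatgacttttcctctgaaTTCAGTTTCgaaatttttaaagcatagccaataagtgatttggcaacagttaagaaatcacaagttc
*Tlr9*, chr9:106222348-106222597, plus strand: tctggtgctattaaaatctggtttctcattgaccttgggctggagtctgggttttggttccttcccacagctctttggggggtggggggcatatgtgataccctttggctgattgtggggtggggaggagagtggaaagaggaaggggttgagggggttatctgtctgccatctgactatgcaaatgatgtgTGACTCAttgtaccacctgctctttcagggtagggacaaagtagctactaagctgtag
*Tlr2*, chr3:83841771-83841790, minus strand: aggacacctgGGGAATTCCC

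The 5 motifs searched on both strands were AGGAAGT (PU.1), GGGANTTCC (NF-kB), GAAANNGAA (an interferon response element), TGANTCA (AP-1) and CACGTG (E-box). In *Tlr8* the capitals are GAAANNGAA on the opposite strand, 67 to 59 bases before the start, and in *Tlr9* they are TGANTCA, 58 to 52 bases before it. The short *Tlr2* stretch is shown because it holds 2 overlapping GGGANTTCC matches, 1 on each strand, 172 to 163 bases before the RefSeq start and 13 to 4 bases before the start of the gene in GENCODE M21. GGGANTTCC was present in 1.43% of the 32851 promoters in the table, GAAANNGAA in 7.13%, TGANTCA in 6.75%, AGGAAGT in 7.69% and CACGTG in 6.02%. Windows of 7 members were searched, 9 in all, and 6 of them held a match. The share of all promoters with at least 1 of the 5 motifs was not counted. The 6 of 9 therefore cannot be read against the shares of single motifs. A *Tlr6* window with 3 matches lies before a RefSeq start at which no GENCODE M21 transcript was found to start. A match of letters is a description and not a binding site.

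In GRCm38 coordinates with GENCODE M21 annotation, *Tlr7* (chrX:167304929-167330558, minus strand) and *Tlr8* (chrX:167242696-167264329, minus strand) are neighbors on the X chromosome, which also holds *Tlr13* (chrX:106143204-106160493, plus strand). *Tlr1* (chr5:64924679-64933563) and *Tlr6* (chr5:64952031-64960097) are neighbors on the minus strand of chromosome 5. *Tlr2* lies at chr3:83836272-83841767 on the minus strand, *Tlr3* at chr8:45395665-45411080 on the minus strand and *Tlr4* at chr4:66827584-66930284 on the plus strand. *Tlr9* lies at chr9:106222598-106226883 on the plus strand, and *Cd14* at chr18:36725067-36726798 on the minus strand. *Tlr1* and *Tlr6* are close paralogs. Of the 50-base windows of their annotated exons, 454 were the same letters in both, 13.6% of those of *Tlr1* and 12.3% of those of *Tlr6*, so that reads that lie wholly within these stretches match both genes. The read length is not given in the sources used here. No other pair among the 45 pairs of members shared such a window. *Tlr3* shares 381 exon bases with the antisense gene *Gm45542*, and the strand setting of the counting is not given in the sources used here.

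The libraries held 4713305 to 6933358 counted reads. *Grk2*, *Grk3* and *Grk6*, the targeted genes, were lower in both 3x*Grk*-/- libraries than in both WT libraries of either condition. *Grk2* had 320 and 321 CPM (read counts scaled to a common library total, with TMM factors over all libraries) in WT against 151 and 146 in 3x*Grk*-/- cells, and 677 and 736 against 199 and 184 with LPS. *Grk6* was at 85.4 and 83.4 against 36.9 and 37.0 CPM without LPS. *Grk3* fell by less, with 338 and 341 against 267 and 263 CPM, and gene counts do not show which exons the remaining reads come from. Markers of other cell types moved with genotype and are given beside the receptors below. The second 3x*Grk*-/- library with LPS stood apart in *Gm42418*, a gene that overlaps ribosomal RNA, with 149727 counts against 26853 in the first.

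All 10 members passed the filter on low counts in each fit. Levels of different genes are compared only as RPKM, the CPM per kilobase of merged exons. In unstimulated WT cells, *Tlr2* was at the top with 29.4 and 30.2 RPKM, followed by *Cd14* with 18.5 and 17, *Tlr9* with 14.1 and 16.6, *Tlr13* with 12.6 and 10.9 and *Tlr4* with 7.19 and 8.55. *Tlr6*, *Tlr7*, *Tlr1*, *Tlr8* and *Tlr3* lay between 0.660 and 1.44 RPKM. Within this lower tier *Tlr6* and *Tlr7* overlapped, and *Tlr3* overlapped with *Tlr8* and *Tlr1*, while no other pair of members overlapped in this group. In unstimulated 3x*Grk*-/- cells *Tlr2* and *Cd14* remained first and second, *Tlr13* and *Tlr4* came before *Tlr7*, and *Tlr9* stood sixth and overlapped with *Tlr7*. With LPS, *Cd14* led in both genotypes, at 32.9 and 34.2 RPKM in WT and at 186 and 196 RPKM in 3x*Grk*-/- cells. *Tlr9*, second by group mean in WT with LPS, was sixth in 3x*Grk*-/- cells with LPS. Members that overlapped were, in WT with LPS, *Tlr4* with *Tlr9*, *Tlr4* with *Tlr2* and *Tlr6* with *Tlr7*. In 3x*Grk*-/- cells the further overlaps were *Tlr1* with *Tlr6* without LPS and *Tlr13* with *Tlr4* with LPS.

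**Figure D1:**
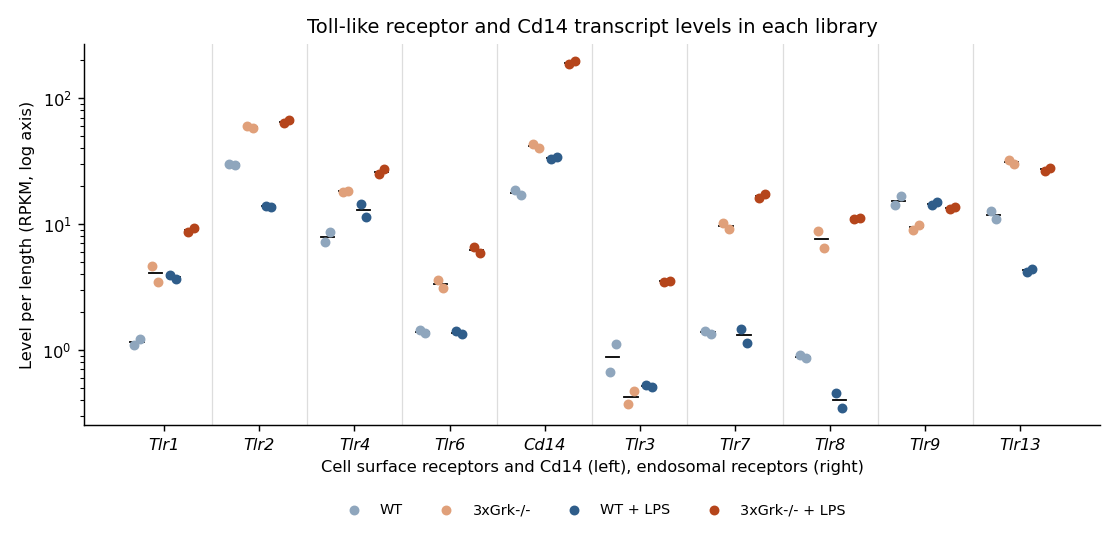
RPKM (log axis) of each member in each of the 8 libraries. Points are single libraries, short lines are group means of 2 libraries, and colors mark genotype and LPS. *Cd14* in 3x*Grk*-/- cells with LPS reached 186 and 196 RPKM, and *Tlr9* was the one gene whose groups all stayed between 8.99 and 16.6 RPKM.

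The first question was how the genotype changed the receptors in unstimulated cells. Of the 10 members, 8 were higher and 2, *Tlr3* and *Tlr9*, were lower in 3x*Grk*-/- cells (Benjamini-Hochberg adjusted p below 0.05 by the quasi-likelihood test of edgeR, run on all genes). Among all 12000 genes tested, 22.1% were higher and 22.7% lower by this rule. The median log2 fold change was 1.26 over the members and -0.002 over all genes tested.

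*Tlr8* and *Tlr7*, the single-stranded RNA receptors, had the widest gaps. *Tlr8* was at 3.25 and 3.08 CPM in WT and at 31.3 and 23.3 CPM in 3x*Grk*-/- cells (log2 fold change 3.12, SE 0.197, adjusted p = 7.01e-55). *Tlr7* was at 5.73 and 5.47 CPM against 41.7 and 37.2 CPM (log2 fold change 2.82, SE 0.159). Both genes thus went from under 6 CPM in each WT library to over 20 CPM in each 3x*Grk*-/- library.

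*Tlr13*, the receptor for bacterial ribosomal RNA, was already well expressed in WT. It was at 54.3 and 47.1 CPM there and at 137 and 129 CPM in 3x*Grk*-/- cells (log2 fold change 1.41, SE 0.0711). *Tlr1* had 3.63 and 4.06 CPM in WT and 15.4 and 11.6 CPM in 3x*Grk*-/- cells (log2 fold change 1.81, SE 0.220). *Tlr6* had 5.35 and 5.05 against 13.3 and 11.6 CPM (log2 fold change 1.27, SE 0.209), and *Tlr2*, the partner of both, had 90.9 and 88.6 against 180 and 175 CPM (log2 fold change 0.99, SE 0.0585). All 3 lipopeptide receptor genes were therefore among the members called higher in 3x*Grk*-/- cells.

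The LPS receptor genes were higher as well. *Tlr4* was at 39.9 and 47.5 CPM in WT and at 100 and 102 CPM in 3x*Grk*-/- cells (log2 fold change 1.19, SE 0.0783). *Cd14* was at 32.1 and 29.4 CPM against 74.9 and 70.0 CPM (log2 fold change 1.25, SE 0.0916). *Ly96* did not differ at the threshold, with 9.55 and 9.67 CPM in WT against 10.6 and 11.5 CPM (log2 fold change 0.19, adjusted p = 0.424).

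In contrast, *Tlr9* fell by 0.73 on the log2 scale (SE 0.0968, adjusted p = 4.51e-13), from 48.9 and 57.9 CPM in WT to 31.3 and 34.0 CPM. *Tlr3* rested on few reads, 18 and 41 counts in the WT libraries and 13 and 14 in the 3x*Grk*-/- libraries. It was at 3.44 and 5.75 CPM in WT and at 1.95 and 2.43 CPM in 3x*Grk*-/- cells (log2 fold change -1.13, SE 0.324, adjusted p = 0.00153). The call for *Tlr3* was lost with DESeq2 (adjusted p = 0.164), without the second WT library (log2 fold change -0.66, adjusted p = 0.304) and without the first 3x*Grk*-/- library (adjusted p = 0.056).

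Next, the genotypes were compared after LPS. Of the 10 members, 9 were higher in 3x*Grk*-/- cells, none was lower and *Tlr9* did not pass the test, against 24.7% higher and 24% lower among all 11830 genes tested. The median log2 fold change of the members was 2.37, and that of all genes was -0.007. In every member but *Tlr9* each 3x*Grk*-/- library lay above both WT libraries, and in *Tlr9* each lay below them by a margin that did not pass the test. With 2 libraries against 2, full separation in either direction has a chance of 0.333 when the order is random. The share of all genes that separate in this way was not counted, so the separation is a description.

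*Tlr8* showed the widest gap again. It was at 1.63 and 1.24 CPM in WT with LPS, from 9 and 8 reads, and at 39.3 and 40.2 CPM in 3x*Grk*-/- cells, from 216 and 248 reads (log2 fold change 4.79, SE 0.216, adjusted p = 7.61e-14). *Tlr7* was at 5.99 and 4.64 CPM against 65.6 and 70.0 CPM (log2 fold change 3.68, SE 0.148). *Tlr13* had 18.0 and 19 CPM against 114 and 120 CPM (log2 fold change 2.66, SE 0.103). The fitted fold changes of these 3 RNA receptor genes of the X chromosome were 27.6, 12.8 and 6.30 in that order.

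*Tlr3*, lower without LPS, was higher with it. It was at 2.72 and 2.63 CPM in WT, from 15 and 17 reads, and at 18.0 and 18.3 CPM in 3x*Grk*-/- cells, from 99 and 113 reads (log2 fold change 2.76, SE 0.229, adjusted p = 1.9e-09). *Cd14* reached 322 and 340 CPM in 3x*Grk*-/- cells, against 57.0 and 59.3 CPM in WT (log2 fold change 2.51, SE 0.0726). *Cd14* and *Tlr3* had the highest fitted response to LPS in 3x*Grk*-/- cells among the members, as given further on.

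At the cell surface, *Tlr2* was at 42.1 and 41.0 CPM in WT and at 190 and 200 CPM in 3x*Grk*-/- cells with LPS (log2 fold change 2.23, SE 0.0811). *Tlr6* was at 5.26 and 4.95 CPM against 24.5 and 22.1 CPM (log2 fold change 2.18, SE 0.188). *Tlr1*, at 13.2 and 12.2 against 29.1 and 30.8 CPM (log2 fold change 1.24, SE 0.143), and *Tlr4*, at 79.8 and 62.7 against 138 and 152 CPM (log2 fold change 1.03, SE 0.0962), showed smaller gaps. *Tlr9* was at 48.8 and 51.7 CPM in WT and at 45.8 and 47.7 CPM in 3x*Grk*-/- cells (log2 fold change -0.11, SE 0.0994, adjusted p = 0.407). *Tlr9* was the member nearest to equal between the genotypes.

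**Figure D2:**
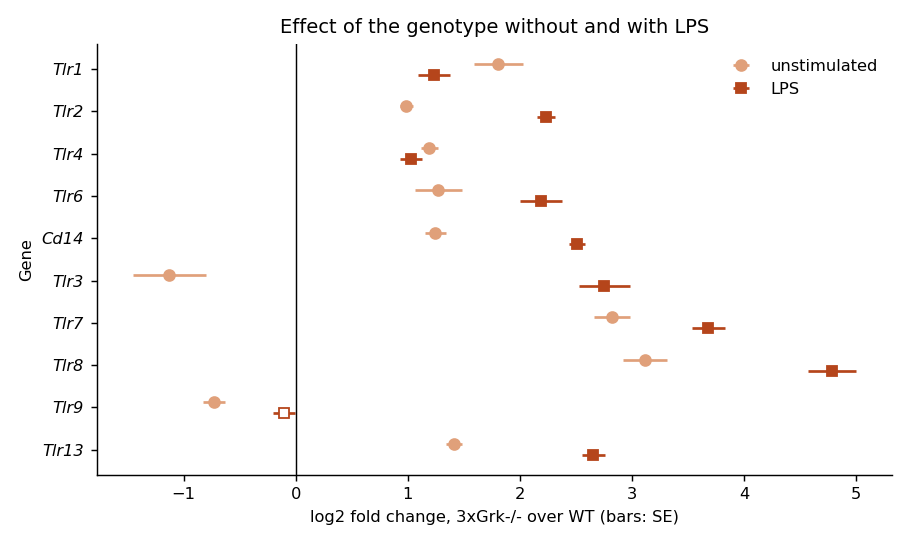
Log2 fold change of each member between 3x*Grk*-/- and WT cells, unstimulated (circles) and with LPS (squares). Bars are SE, filled symbols passed the adjusted p threshold of 0.05 and the open symbol did not. *Tlr8* and *Tlr7* lie farthest right in both conditions, while *Tlr3* changes side.

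In bulk RNA, fewer cells of a type and less RNA per cell cannot be told apart, and the cell type markers moved with the genotype. Of 8 macrophage markers, 4 were higher and 1 lower among the 6 tested in unstimulated 3x*Grk*-/- cells, and all 7 tested were higher with LPS. Their summed level was 678 to 702 CPM in unstimulated WT, 1345 to 1395 in unstimulated 3x*Grk*-/-, 335 to 338 in WT with LPS and 2392 to 2435 CPM in 3x*Grk*-/- with LPS. *Vsig4* was at 0 in all libraries and *Cd5l* had at most 2 reads in WT. Of 7 DC markers, 2 were higher and 5 lower without LPS, and 1 was higher and 6 lower with LPS. Their summed level was 6175 to 6219 CPM in unstimulated WT, 3593 to 3618 CPM in unstimulated 3x*Grk*-/-, 6229 to 6543 CPM in WT with LPS and 5086 to 5188 CPM in 3x*Grk*-/- with LPS. *H2-Aa*, an MHC class II gene, made up much of this sum, and without it the sums were 2209 to 2231 CPM and 1938 to 1942 CPM in unstimulated WT and 3x*Grk*-/- cells, and 4379 to 4572 and 3433 to 3520 CPM with LPS. *Ccr7*, a chemokine receptor gene of mature DCs, carried much of what remained. Its mean level was 1224 and 1450 CPM in unstimulated WT and 3x*Grk*-/- cells, and 3780 and 3034 CPM with LPS. *Ccr7* was thus higher in 3x*Grk*-/- cells without LPS and lower with it. *Flt3* was higher in both conditions, and *Zbtb46*, *Dpp4*, *Kmo* and *Ciita* were lower in both. In WT cells *H2-Aa* fell with LPS, by 1.06 on the log2 scale, while *Ccr7* rose by 1.63. The part of these cell types in the receptor levels was not tested.

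Plasmacytoid DCs and B cells are known for *Tlr7* and *Tlr9*. The 5 plasmacytoid DC markers summed to at most 1.78 CPM and the 5 B cell markers to at most 0.928 CPM in any library, and no marker of these lists had more than 8 reads. In each group, 1 or 2 of the plasmacytoid DC markers and 1 to 3 of the B cell markers were at 0. Of 5 eosinophil markers, 4 were lower in unstimulated and 5 in LPS-treated 3x*Grk*-/- cells. They summed to 905 to 961 CPM in unstimulated WT and 54.0 to 57.6 CPM in unstimulated 3x*Grk*-/- cells, and to 896 to 966 and 36.2 to 42.4 CPM with LPS for WT and 3x*Grk*-/- cells. Of 8 neutrophil markers, 1 was higher and 5 lower without LPS, and 1 higher and 6 lower with LPS. *Mmp8*, a neutrophil collagenase gene, was the 1 that was higher. The summed level was 1257 to 1285 CPM in 3x*Grk*-/- cells against 800 to 842 in WT without LPS and 544 to 566 against 356 to 411 CPM with LPS. Without *Mmp8* the sum was lower in 3x*Grk*-/- cells, 512 to 530 against 694 to 739 CPM and, with LPS, 182 to 199 against 331 to 386 CPM. Of 4 mast cell or basophil markers tested, 1 was higher and 2 lower in each condition, with sums of 35.9 to 45.8 CPM without LPS and, with LPS, of 83.2 to 83.5 CPM in WT and 269.8 to 279.7 CPM in 3x*Grk*-/- cells. The higher one was *Hdc*, the gene for the histamine-forming enzyme, and without it the sums were 26.2 to 29.6 CPM without LPS and, with LPS, 26.8 to 28.5 CPM in WT and 15.8 to 20.3 CPM in 3x*Grk*-/- cells. No DC, eosinophil, neutrophil, mast cell or basophil marker was at 0 in a group. The part of these cells was not tested either.

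The response of the receptors to LPS was then read within each genotype, from one fit of all 8 libraries in which both responses and their difference use the same samples. In WT cells 3 members were higher after LPS (*Tlr1*, *Tlr4* and *Cd14*), 4 were lower (*Tlr2*, *Tlr3*, *Tlr8* and *Tlr13*) and 3 did not pass the test (*Tlr6*, *Tlr7* and *Tlr9*). Among all 12541 genes tested, 29.5% were higher and 30.8% lower in this comparison. The counts of 3 and 4 members thus lay near the shares of all genes. In 3x*Grk*-/- cells 8 members were higher, 1 was lower (*Tlr13*) and *Tlr2* did not pass the test, against 28% higher and 27.4% lower among all genes. The median log2 response of the members was -0.09 in WT and 0.66 in 3x*Grk*-/- cells.

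WT cells with LPS had less *Tlr13* and *Tlr2* than unstimulated WT cells. The WT log2 response was -1.44 for *Tlr13* (SE 0.110, adjusted p = 3.84e-12) and -1.11 for *Tlr2* (SE 0.0784, adjusted p = 7.41e-13). In 3x*Grk*-/- cells *Tlr13* fell by 0.19 (SE 0.0696, adjusted p = 0.0207), a call that was lost with DESeq2 (adjusted p = 0.161) and without the first unstimulated (adjusted p = 0.222) or the first LPS-treated 3x*Grk*-/- library (adjusted p = 0.18). *Tlr2* did not pass the test in 3x*Grk*-/- cells (log2 response 0.14, SE 0.0594, adjusted p = 0.0538), and scaling by library size alone turned it to -0.08.

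*Tlr1*, *Tlr4* and *Cd14* rose in both genotypes. *Tlr1* had a log2 response of 1.71 in WT (SE 0.222) and of 1.13 in 3x*Grk*-/- cells (SE 0.140). *Tlr4* had a log2 response of 0.68 in WT (SE 0.103) and of 0.52 in 3x*Grk*-/- cells (SE 0.0835). *Cd14* had a log2 response of 0.93 in WT (SE 0.0909) and of 2.19 in 3x*Grk*-/- cells (SE 0.0657), the one of the 3 with the larger value in 3x*Grk*-/- cells.

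The endosomal receptors fell or did not pass the test in WT, and all but *Tlr13* rose in 3x*Grk*-/- cells. *Tlr3* had a log2 response of -0.83 in WT (SE 0.312, adjusted p = 0.0231) and of 3.05 in 3x*Grk*-/- cells (SE 0.241, adjusted p = 9.33e-12), the highest of the members. The WT fall of *Tlr3* was lost with DESeq2 (adjusted p = 0.112), without the second unstimulated WT library (log2 response -0.36, adjusted p = 0.503) and without the first (adjusted p = 0.0507) or second WT library with LPS (adjusted p = 0.0819). *Tlr8* had a log2 response of -1.14 in WT (SE 0.411, adjusted p = 0.0174), from 17 and 22 reads to 9 and 8. That fall was lost without the first (adjusted p = 0.0517) or second unstimulated WT library (adjusted p = 0.0593) or the second WT library with LPS (adjusted p = 0.106).

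In 3x*Grk*-/- cells *Tlr8* rose by 0.53 on the log2 scale (SE 0.121, adjusted p = 4.68e-04), which became 0.35 without the second unstimulated 3x*Grk*-/- library and 0.31 with scaling by library size alone. *Tlr7* rose by 0.78 (SE 0.0956), *Tlr6* by 0.89 (SE 0.145) and *Tlr9* by 0.52 (SE 0.107) in 3x*Grk*-/- cells. In WT, *Tlr7* had a log2 response of -0.08, *Tlr6* of -0.02 and *Tlr9* of -0.10. In these 3 genes the WT libraries with and without LPS overlapped, and with scaling by library size alone *Tlr9* was lower after LPS in WT (log2 response -0.31, adjusted p = 0.00616).

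The difference between the 2 responses was tested as an interaction. It was positive and past the threshold for 8 of the 10 members, against 16.5% of all 12541 genes with a positive and 16% with a negative interaction. A positive value means a higher log2 response in 3x*Grk*-/- than in WT cells. It was largest for *Tlr3* (3.88, SE 0.407, adjusted p = 1.03e-08) and came to 1.67 for *Tlr8* (SE 0.425, adjusted p = 0.00265). *Cd14* (1.26, SE 0.115), *Tlr13* (1.25, SE 0.131) and *Tlr2* (1.25, SE 0.0986) had nearly the same value. Those of *Tlr6* (0.91, adjusted p = 0.0148), *Tlr7* (0.86, adjusted p = 0.0112) and *Tlr9* (0.62, adjusted p = 0.0012) were smaller. The interaction of *Tlr6* did not pass with DESeq2 (adjusted p = 0.113), and that of *Tlr7* did not pass without the second WT library with LPS (log2 difference 0.67, adjusted p = 0.0884).

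*Tlr1* and *Tlr4* did not pass the test of the difference. *Tlr1* had an interaction of -0.57 (SE 0.274, adjusted p = 0.115), which passed without the second unstimulated 3x*Grk*-/- library (-0.75, adjusted p = 0.0461). *Tlr4* had -0.16 (SE 0.133, adjusted p = 0.386), which passed without the second WT library with LPS (-0.34, adjusted p = 0.02) and turned to 0.01 without the first.

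**Figure D3:**
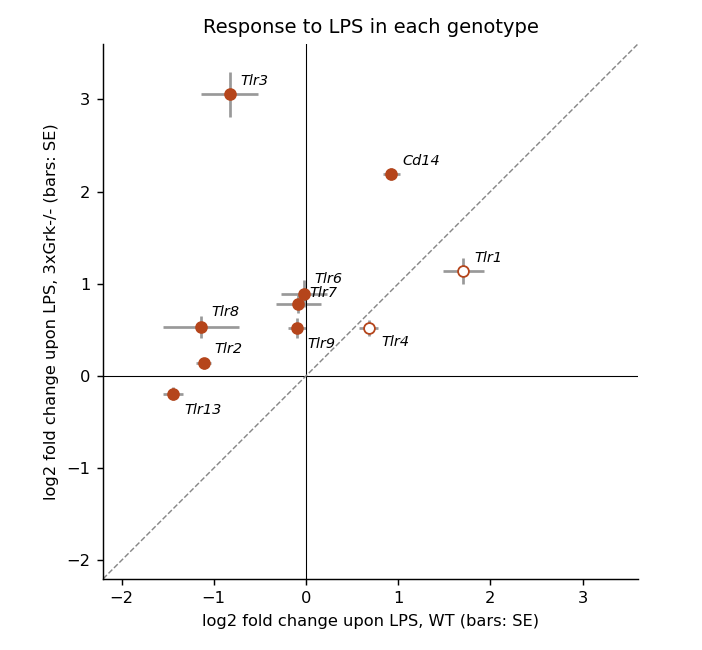
Log2 response to LPS of each member in WT (x axis) and in 3x*Grk*-/- cells (y axis), with SE as bars. The dashed line marks equal responses and filled points passed the interaction test. All 8 filled points lie above the line, and *Tlr3* sits farthest from it at -0.83 and 3.05.

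The balance of cell surface and endosomal receptor transcripts lay in a narrow range, and the make-up of the endosomal receptors did not. The 5 endosomal receptors made up 38.0 to 43.3% of the summed RPKM of the 9 TLR genes in all 8 libraries. Within the endosomal sum, *Tlr9* held 47.4 and 53.9% in unstimulated WT and 68.0 and 69.9% in WT with LPS. In 3x*Grk*-/- cells *Tlr9* held 14.9 and 17.5% without and 18.8 and 18.7% with LPS. The RNA receptors of the X chromosome, *Tlr7*, *Tlr8* and *Tlr13* together, held 50.3 and 42.5% in unstimulated WT and 84.5 and 81.7% in unstimulated 3x*Grk*-/- cells. With LPS their share was 29.5 and 27.8% for WT against 76.3 and 76.6% for 3x*Grk*-/- cells. The ratio of *Tlr7* to *Tlr9* RPKM was 0.0765 to 0.105 in the 4 WT libraries and 0.930 to 1.25 in the 4 3x*Grk*-/- libraries. These shares describe the libraries and were not tested.

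**Figure D4:**
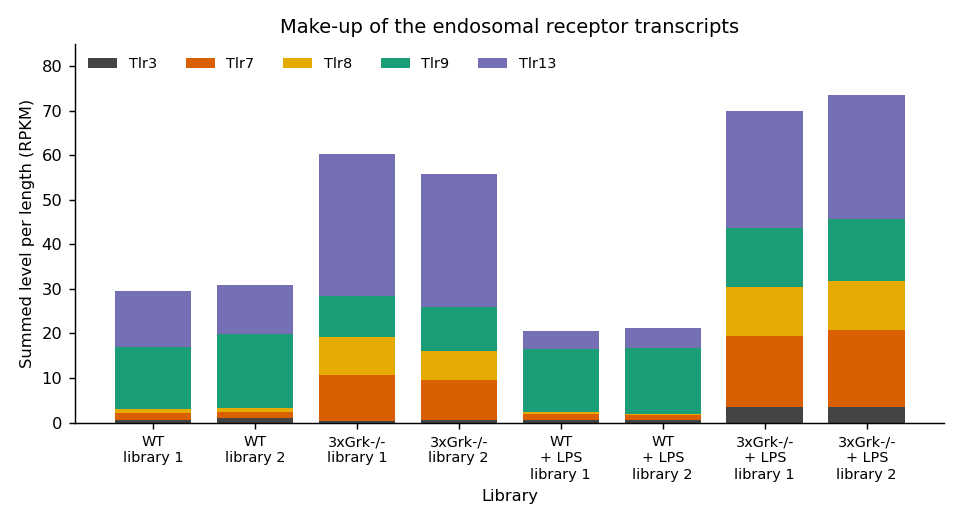
Summed RPKM of the 5 endosomal receptor genes in each of the 8 libraries, with 1 color per gene. *Tlr9* (green) makes up 47.4 to 69.9% of the bars of WT libraries and 14.9 to 18.8% of those of 3x*Grk*-/- libraries.

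Among the cell surface receptors *Tlr2* held 75.7 and 72.5% of the summed RPKM in unstimulated WT, 69.5 and 69.9% in unstimulated 3x*Grk*-/-, 41.4 and 45.6% in WT with LPS and 61.1 and 61.0% in 3x*Grk*-/- with LPS. *Tlr4* held 42.6 and 37.8% in WT with LPS, and 18.0 to 25.1% in the other 6 libraries. *Cd14* was at 1.99 to 3.03 times the RPKM of *Tlr4* in 6 libraries, and at 7.52 and 7.17 times in 3x*Grk*-/- cells with LPS. *Tlr4* was at 0.517 to 0.903 times the RPKM of *Ly96* in WT and at 1.03 to 1.73 times in 3x*Grk*-/- cells.

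The other genes of the pathway were counted from lists grouped by role, and their counts are read against the shares over all genes given above, 22.1% higher and 22.7% lower without LPS and 24.7% higher and 24% lower with LPS. Of the TLR genes outside the members, *Tlr11* and *Tlr12*, endosomal receptors for protozoan profilin, were both lower in unstimulated 3x*Grk*-/- cells, with log2 fold changes of -2.26 and -1.31. With LPS *Tlr12* was lower (log2 fold change -0.88) and *Tlr11* did not pass the test (0.28, adjusted p = 0.583). *Tlr5*, the flagellin receptor, did not pass the filter in either genotype comparison.

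Of the co-receptor genes, 2 of 4 tested were higher and 1 lower without LPS, and 2 of 5 were higher with LPS. *Cd180*, a TLR4-like receptor, was at 34.2 and 36.6 CPM in WT and at 47.7 and 41.7 CPM in 3x*Grk*-/- cells without LPS (log2 fold change 0.34), and at 6.53 and 6.03 against 60.2 and 67.9 CPM with LPS (3.35). *Cd36*, a scavenger receptor that aids TLR2 with TLR6, was higher in both conditions (1.002 and 1.32). *Ly86*, which encodes the partner of CD180, was lower without LPS (-0.64) and did not pass with LPS (-0.17, adjusted p = 0.416). *Ly96* rose with LPS in both genotypes, by 1.24 on the log2 scale in WT and by 1.22 in 3x*Grk*-/- cells, and did not differ at the threshold between genotypes with LPS (log2 fold change 0.17, adjusted p = 0.311).

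Of the 9 chaperone and trafficking genes, 3 were higher and 2 lower without LPS, near the shares over all genes, and 6 were higher and 1 lower with LPS. *Unc93b1*, which escorts nucleic acid-sensing TLRs to endosomes, was at 194 and 202 CPM in WT against 246 and 261 CPM without LPS (log2 fold change 0.35) and at 236 and 232 against 322 and 310 CPM with LPS (0.43). *Slc15a3*, an endolysosomal peptide transporter, was higher with LPS (1.32) and did not pass without it (0.04, adjusted p = 0.462). *Tmed1* was higher in both conditions (0.67 and 1.22), and *Ap3b1*, a subunit of the AP-3 adaptor that sorts endosomal cargo, was lower in both (-0.33 and -0.82).

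The endolysosomal list holds proteases, some of which cut endosomal TLRs into their active form, and nucleases that act on nucleic acid ligands, among them *Pld3* and *Pld4*, exonuclease genes known for breaking such ligands down. Without LPS 6 of 10 genes were higher and 3 lower, with a median log2 fold change of 0.89, and with LPS all 10 were higher, with a median of 1.67. *Ctsl*, encoding cathepsin L, was at 43.9 and 46.4 CPM in WT and at 729 and 751 CPM in 3x*Grk*-/- cells, and with LPS at 45.2 and 46.6 against 2898 and 2921 CPM. The log2 fold changes of *Ctsl* were 4.03 and 5.98. *Ctsk* (3.10 and 4.19) and *Ctsb* (1.38 and 3.14), encoding cathepsins K and B, were higher in both conditions as well. *Pld3* was also higher in both (1.20 and 1.65), while *Pld4* was lower without LPS (-0.30) and higher with LPS (1.95).

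Of 10 tested genes for TIR adaptors, IRAK kinases and TRAF proteins, 5 were higher and 2 lower without LPS, and 4 were higher and 1 lower with LPS, with medians of 0.20 and 0.12. *Myd88*, the adaptor of all members but *Tlr3* among the TLRs, was at 109 and 110 CPM in WT against 96.5 and 100 CPM in the unstimulated state, where it was lower (log2 fold change -0.16, adjusted p = 0.0305), and at 87.5 and 93.6 against 103 and 102 CPM after LPS, where it did not pass (0.18, adjusted p = 0.0695). *Irak3*, a kinase-dead brake on TLR signaling, was higher in both conditions (0.94 and 1.75), as was *Irak2* (0.32 and 0.74). *Ticam2*, the bridging adaptor between TLR4 and TRIF, was lower without LPS (-0.72) and did not pass with LPS (-0.09, adjusted p = 0.699).

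Of 6 attenuator genes, 2 were higher and 1 lower without LPS, near the shares over all genes, and 3 were higher and 2 lower with LPS, with medians of 0.10 and 0.02. *Tnfaip3*, encoding the ubiquitin editor A20, was higher in both conditions (0.31 and 0.65) and *Tnip3* lower in both (-0.46 and -0.93). *Sigirr*, an inhibitory receptor, was lower with LPS (-0.68) and did not pass without it (-0.14, adjusted p = 0.447). All adjusted p-values for these lists are Benjamini-Hochberg values of the same edgeR fits.

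**Figure D5:**
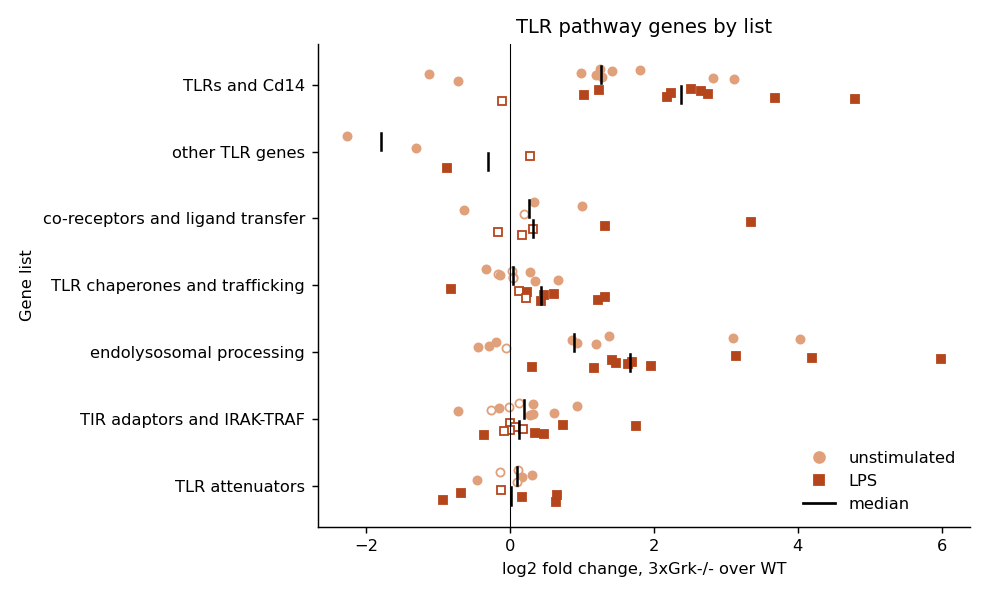
Log2 fold change between 3x*Grk*-/- and WT cells for each tested gene of the TLR pathway lists, unstimulated (circles) and with LPS (squares). Filled symbols passed the adjusted p threshold of 0.05, and vertical lines are list medians. The members have medians of 1.26 and 2.37, the endolysosomal genes of 0.89 and 1.67, and the adaptors and attenuators of at most 0.20.

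For each member the genes with the most similar pattern were sought among 9341 genes with a mean log2 CPM of at least 3, by the root mean square (RMS) difference of centered log2(CPM + 1) over the 8 libraries. The libraries fall into 4 groups that share genotype or LPS, so these values are a description. *Cd14* was nearest to *Adgre1*, the gene for the macrophage marker F4/80, with an RMS difference of 0.0606 (Pearson's r 0.999). *Adgre1* was at 108 and 99.6 CPM in unstimulated WT, 263 and 267 in unstimulated 3x*Grk*-/-, 208 and 211 in WT with LPS and 1150 and 1190 CPM in 3x*Grk*-/- with LPS. *Tlr2* was nearest to *Anpep*, an aminopeptidase gene (0.0751), and *Tlr6* to *Tcirg1*, a subunit of the proton pump that acidifies lysosomes (0.0781). *Tlr7* was nearest to the C-type lectin gene *Clec4d* (0.130), which was also the second nearest to *Tlr8* after *Fam20c* (0.241 and 0.202). *Tlr13* was nearest to *Slamf8* (0.123) and *Tlr9* to *Nadk2* (0.103). *Tlr4* was nearest to *Gch1* (0.153), *Tlr1* to *Dab2* (0.186) and *Tlr3* to *Tarm1* (0.339), the most distant nearest gene among the 10 members.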

How the data were processed

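RNA of WT and 3x*Grk*-/- BMDCs was sequenced from TruSeq stranded mRNA libraries. According to the methods of the study, the authors ran snakePipes 2.1.0, with STAR 2.7.3a on mm10 and featureCounts 2.0.0. The values deposited by the authors are whole-number counts of reads per gene, without normalization, in 2 tables of 4 libraries each, 1 for each stimulation. The annotation release is not given in the sources used here. GENCODE M21 (GRCm38) named 47224 of the 47937 gene IDs, 39106 of them with the same version. Groups and replicate numbers came from the sample titles. Library totals of 4713305 to 6933358 counts limit the precision of genes with few reads.

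Genotypes were compared within each table, and responses to LPS and the interaction in one fit of all 8 libraries, with edgeR 4.0.16 in R 4.3.3 (TMM, filterByExpr, glmQLFit and glmQLFTest, Benjamini-Hochberg over all genes tested, adjusted p under 0.05). The standard error is the log2 fold change before the prior count divided by the root of the F statistic. Values of CPM use TMM factors over 8 libraries. RPKM divides them by merged exon length. On simulated counts with 200 changed genes, 185, 179, 174, 178 and 160 were recovered in the order of the comparisons as reported, with 6, 8, 9, 1 and 9 false calls among 12000, 11830, 12541, 12541 and 12541 genes. These counts were drawn with the coefficient of variation fitted to each comparison, 0.0306 to 0.0573, the same for all genes. The recovery therefore does not show how the tests fare with the wider spread of separate cultures or animals. Replicate libraries were not copies of each other (chi-square per gene of 1.59 to 9.02 within groups as a mean over genes, and of 1.16 to 1.92 from the median). Alternatives were DESeq2 1.42.0, other scalings and filters, a replicate block, a fixed coefficient of variation, and leaving out each library. The members and lists were chosen with earlier results of these data known. Named genes outside the members are up to 3 per list with the largest absolute log2 fold change in either genotype comparison, plus *Ly96*, *Unc93b1* and *Myd88*, the targeted kinases, and the 2 nearest genes of each member, of which the nearest is given. *Gm42418*, *Vsig4*, *Cd5l*, *Mmp8*, *Hdc*, *H2-Aa*, *Ccr7*, *Flt3*, *Zbtb46*, *Dpp4*, *Kmo*, *Ciita*, *Pld3* and *Pld4* were named after their values were seen. Promoters are from RefSeq, and those of *Tlr4*, *Tlr7* and *Cd14* were not searched.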

Additional observations from a re-analysis of the deposited data

Results flagged for a closer look

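For 8 of the 10 members the genotypes responded differently to LPS, by the interaction term of the edgeR fit of all 8 libraries (Benjamini-Hochberg adjusted p below 0.05). The log2 difference between the 3x*Grk*-/- and the WT response was 3.88 for *Tlr3*, 1.67 for *Tlr8*, 1.26 for *Cd14*, 1.25 for *Tlr13*, 1.25 for *Tlr2*, 0.91 for *Tlr6*, 0.86 for *Tlr7* and 0.62 for *Tlr9*. All 8 were positive, against 16.5% of all genes tested that were positive and past the threshold. In *Tlr3* the responses had opposite signs, -0.83 in WT and 3.05 in 3x*Grk*-/- cells. Groups of 2 libraries are too small to look for a library that lies far from the others of its group.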

How the results depend on the processing

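Over all comparisons the members gave 736 values under alternative settings. Of these, 675 kept their direction and their side of the threshold, 46 lost the call, 9 gained it and 6 changed sign. Of the 46, 31 came from fixing the biological coefficient of variation at 0.4 in place of the fitted 0.0306 to 0.0573.

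With it, the members called went from 10 to 2 (*Tlr7* and *Tlr8*) for genotype without LPS, from 9 to 7 with LPS, from 7 to 0 for the WT response, where edgeR's likelihood ratio test gave 2 at an unadjusted p under 0.05 and DESeq2 called 6, from 9 to 2 (*Cd14* and *Tlr3*) for the 3x*Grk*-/- response and from 8 to 1 (*Tlr3*) for the interaction. Genes called went from 5369 to 448, from 5754 to 782, from 7561 to 1110, from 6945 to 850 and from 4070 to 72 in that order. DESeq2 called 3086 genes without LPS and 2643 for the interaction.

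The sign changes were in values that did not pass the test. Leaving out 1 library gave WT responses of -0.0696 to 0.029 for *Tlr6*, -0.26 to 0.107 for *Tlr7* and -0.208 to 0.0413 for *Tlr9*, and an interaction of -0.336 to 0.0142 for *Tlr4*. Scaling by library size alone gave -0.0823 for the *Tlr2* response in 3x*Grk*-/- cells. That scaling shifted the median of all genes by -0.215 and -0.218 in the WT and 3x*Grk*-/- responses, and moved the share of calls that were higher from 49% to 31.1%, from 50.5% to 30.2% and, for genotype without and with LPS, from 49.3% to 35.8% and from 50.7% to 40.9%. The cause of these changes was not tested. A library left alone in its group was assumed to vary like the other groups.

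Replicate numbers did not pair the libraries (correlations of their deviations from -0.065 to 0.072). A replicate block changed no call of a member, with 10, 9, 7, 9 and 8 members called in the order above, and 5292 genes called for genotype without LPS. Depth limits the precision of members with few reads, such as *Tlr3* in WT and in unstimulated 3x*Grk*-/- cells and *Tlr8* in WT.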
